A study of Mus musculus with 112 samples.

Results

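Of 27 papilloma arrays from mouse skin, 4 had low levels of 3 epithelial transcripts, and these 4 are set here against the other 23. Each papilloma was scored as the mean log2 intensity of Krt5, a keratin of basal keratinocytes, Dsg3, a desmosomal cadherin, and Esrp1, a splicing regulator of epithelial cells. The 4 lowest scores were taken as low papillomas and the 23 others as usual papillomas. The low papillomas were papillomas 2 and 3 of mouse 1815, papilloma 2 of mouse 1984 and papilloma 1 of mouse 1508, named below as 1815 PAP2, 1815 PAP3, 1984 PAP2 and 1508 PAP1. They came from 3 of the 13 mice with a papilloma array, were all wild type for Hras and all belonged to batch 1. The name low papilloma rests on the label and the score alone, since the profiles described below were closer to spindle carcinomas than to other papillomas.

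The study profiled skin and tumours of 15 male-labelled mice from a cross of Spretus x FVB F1 animals back to FVB. Of these, 9 were wild type and 6 were HrasKO, the labels' name for mice without Hras. All mice, the wild-type ones included, received 25 mg of the carcinogen DMBA once at 8 weeks of age. They then received 200 uL of the tumour promoter TPA 2 times a week. Primary tumours were resected once larger than 1 cm, and the mice carried metastases at sacrifice. The labels do not give a histology for papillomas beyond the word papilloma, whereas carcinomas and metastases are labelled SCC (squamous cell carcinoma), spindle or mixed. Besides the papillomas there were 15 dorsal skin arrays, 25 carcinoma arrays and 45 metastasis arrays. The wild-type mice gave 19 papilloma arrays and the HrasKO mice 8. Batch 1 held 23 papillomas and batch 2 held 4.

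Papillomas raised by DMBA and TPA are benign outgrowths of keratinocytes that still stratify and make keratins, desmosomes and cornified envelope proteins. Spindle carcinomas are tumours of this model whose cells have lost most epithelial features. In epithelial to mesenchymal transition, repressors of the Zeb and Snai families bind E-box sequences in promoters of epithelial genes, while Grhl and Ovol factors, the Esrp splicing regulators and the microRNAs of the miR-200 family sustain the epithelial state and hold Zeb factors down.

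Several facts about the arrays bear on the values below. All 8 arrays of mouse 1984 and all 6 of mouse 2104 had Xist at 10.16 or more and Y-linked transcripts at 4.52 or less, against the male sex on their labels, so counts are also given without these mice. Skeletal muscle transcripts were high in 3 of the 4 low papillomas and in 3 of the 23 usual ones. A carcinoma of mouse 1949 labelled spindle had a score of 11.74, inside the usual papilloma range, and is left out in an alternative. Tumours of 1 mouse are not independent, and in bulk tissue fewer cells of a type and less RNA per cell cannot be told apart.

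The score was 4.45 in 1815 PAP2, 4.59 in 1815 PAP3, 6.12 in 1984 PAP2 and 9.54 in 1508 PAP1. In usual papillomas it ran from 10.85 to 12.12, with a median of 11.80. The array just inside the boundary was thus 1508 PAP1 at 9.54 and the array just outside was papilloma 2 of HrasKO mouse 1407 at 10.85. The low papillomas were not alike in this measure, since 1508 PAP1 lay nearer to the usual papillomas than to the other 3. Krt5 was 5.35, 5.65, 7.99 and 11.13 in the low papillomas in the order above, against 12.16 to 12.83 in usual ones. Dsg3 was 3.76, 3.70, 5.51 and 9.27 against 9.75 to 12.19. Esrp1 was 4.24, 4.42, 4.88 and 8.22 against 10.29 to 11.49. These values chose the arrays and are given as a description. For comparison, the score ran from 9.59 to 11.57 in skin, from 10.81 to 12 in SCC carcinomas and from 4.21 to 11.74 in spindle carcinomas, with a spindle median of 5.43.

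**Figure D1:**
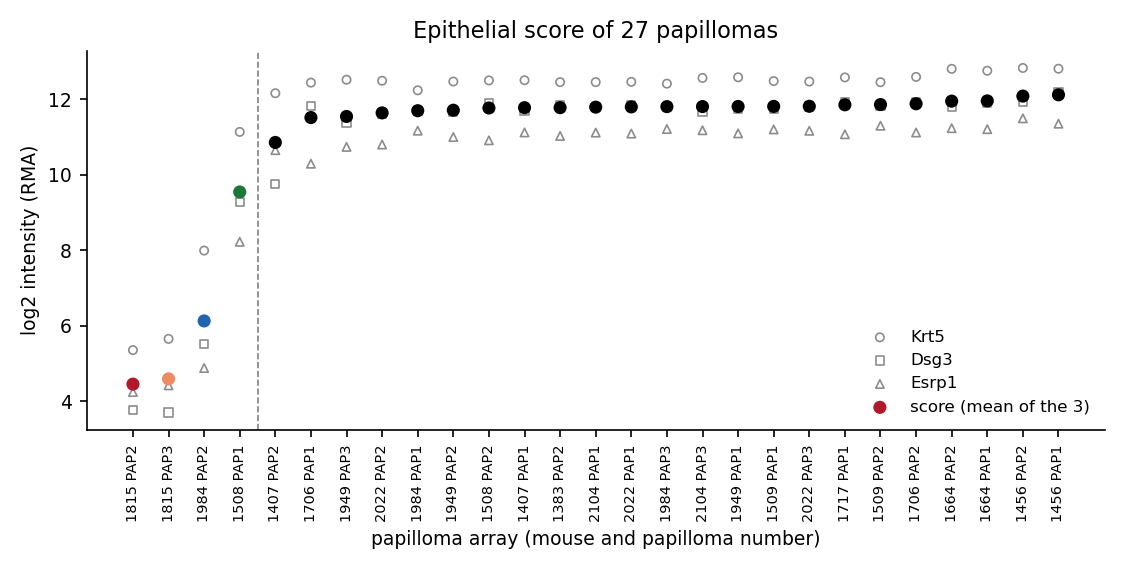
Score (filled points) and the log2 intensity of Krt5, Dsg3 and Esrp1 (open symbols) in each of 27 papilloma arrays, ordered by score, with the dashed line between the 4 low and the 23 usual papillomas. The 2 papillomas of mouse 1815 lie lowest at 4.45 and 4.59, and 1508 PAP1 lies at 9.54, next to the lowest usual papilloma at 10.85.

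Over all 18772 genes, 1266 had a mean at least 2-fold lower in the low papillomas (6.74%) and 1476 a mean at least 2-fold higher (7.86%). For 775 genes (4.13%) every low array lay below every usual array, and for 831 genes (4.43%) every low array lay above. With each array's median subtracted these counts were 597 and 996. Without mice 1984 and 2104 they were 1131 and 1659, and without 1984 PAP2 alone 1082 and 1522. The median difference over all genes was 0.00 on the log2 scale. Because the arrays were chosen by their values, these counts and all gene values in this contrast are described without a test. Gene lists are read beside these shares only as description. Differences are given as the mean log2 intensity of the low papillomas minus that of the usual ones.

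Regulators of the epithelial state were low without exception in the mean. All 15 measured members were at least 2-fold lower, 14 of them without overlap, and their median difference was -4.36. Grhl2, a factor that activates junction genes, read 4.15, 4.44, 4.47 and 6.09 in 1815 PAP2, 1815 PAP3, 1984 PAP2 and 1508 PAP1, against 8.34 to 9.14 in usual papillomas. Its relative Grhl3, needed for the epidermal barrier, read 5.49, 5.15, 4.995 and 8.18 against 8.98 to 11.60, a difference of -5.09 (SD 1.497 in 4 low and 0.53 in 23 usual arrays). Esrp2, the partner of Esrp1 in epithelial splicing, read 4.63, 4.46, 4.398 and 6.78 against 8.96 to 10.62. Ovol1, a repressor of mesenchymal genes, read 4.91, 4.64, 4.59 and 6.66 against 8.02 to 10.97. For each of these 4 genes the groups did not overlap, and 1508 PAP1 lay between the other low arrays and the usual range. Ovol2 behaved otherwise, at 5.01, 4.64, 5.23 and 4.997 against 5.77 to 6.765, with 1508 PAP1 no higher than the rest. The groups lay close together for Ovol2, so a level in between would be hard to see. Elf3 was the member that overlapped, since its usual range reached down to 5.31 and 1508 PAP1 read 5.70.

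The membrane proteases and trafficking proteins of the same list were equally low. Prss8, a channel-activating serine protease, read 4.15, 4.28, 3.59 and 6.57 against 8.63 to 10.91, the largest difference of the list at -5.47 (SD 1.31 and 0.56). Rab25, a small GTPase of epithelial recycling endosomes, read 5.19, 5.32, 6.07 and 8.71 against 10.55 to 12.002, a difference of -5.38 (SD 1.64 and 0.34). St14, the protease matriptase, differed by -4.36, and its inhibitors Spint1 and Spint2 by -3.98 and -3.32. Every one of these lay below all 23 usual papillomas in all 4 low arrays.

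All 9 desmosomal genes were at least 2-fold lower, 8 without overlap, with a median difference of -4.01. Dsc3, a desmosomal cadherin of basal layers, read 4.43, 5.18, 5.07 and 9.54 against 11.50 to 12.04. Dsg1b, a cadherin of upper layers, read 3.93, 3.76, 4.10 and 8.17 against 9.00 to 11.74. The papillomas of mouse 1815 were unlike in 2 plaque genes, singled out after their values had been seen, as Dsp was 6.46 in 1815 PAP2 and 9.50 in 1815 PAP3, and Pkp1 was 6.10 and 9.85. The plaque gene Pkp3 was nearly equal in them, at 5.95 and 5.94. Jup, whose product also serves adherens junctions, differed least between low and usual papillomas at -1.63, with low arrays at 10.23 to 11.01. The 14 other junction genes were all at least 2-fold lower, 10 without overlap, with a median of -2.93. Cldn4, a tight junction claudin, read 5.26, 5.70, 5.54 and 7.42 against 9.60 to 11.34. The gap junction gene Gjb2 overlapped, because 1508 PAP1 read 10.38 and the lowest usual papilloma 9.43. Cdh1, the E-cadherin gene, read 7.15, 8.29, 7.03 and 8.56 against 10.73 to 11.53, and Epcam, an epithelial adhesion molecule, read 5.03, 6.06, 5.47 and 7.49 against 8.32 to 10.06.

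Keratinocyte lineage and differentiation genes separated 1508 PAP1 from the other low papillomas. Among 11 basal keratinocyte genes, 8 were at least 2-fold lower and 1 was at least 2-fold higher, with a median of -2.18. Trp63, the master factor of stratified epithelia, read 4.76, 5.37, 6.03 and 8.34 against 10.22 to 10.83. Krt14, the partner of Krt5, read 6.77, 9.16, 7.95 and 11.78 against 12.17 to 12.97. All 15 cornified differentiation genes were at least 2-fold lower on average, but only 6 without overlap. Krt1, a keratin of suprabasal cells, read 4.34, 4.60, 4.83 and 11.67 against 11.19 to 13.06, so that 1508 PAP1 was inside the usual range and the other 3 were far below. Tgm3, an enzyme that crosslinks the cornified envelope, read 5.13, 5.24, 5.04 and 9.45 against 9.01 to 12.96, with the same order. All 13 genes of hyperplastic epidermis were at least 2-fold lower on average and only 1 did so without overlap. Krt16, a keratin of stressed epidermis, read 4.44, 4.02, 5.65 and 10.55 against 8.84 to 12.59. Defb4, a beta-defensin, read 3.33, 3.69, 3.93 and 7.03, and its usual papillomas spanned 4.97 to 12.28.

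Appendage and pigment cell markers were also low. All 8 sebocyte genes were at least 2-fold lower on average, but only 1 without overlap, with a median of -2.67. Within mouse 1508 only 1 was lower and 1 higher by that margin. Of 16 hair follicle genes, 9 were at least 2-fold lower and 5 did not overlap. Foxn1, a factor of keratinocyte differentiation in the hair follicle, read 4.41, 4.61, 4.46 and 4.93 against 6.40 to 8.95. Of 6 melanocyte genes, 5 were at least 2-fold lower on average and 2 did not overlap. Within mouse 1508, 3 of them were lower by that margin. Tyrp1, a melanin synthesis enzyme, read 4.12, 4.20, 3.82 and 4.41 against 4.63 to 10.50. All 4 low papillomas lay below every usual papilloma for this gene, and the usual papillomas varied widely.

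**Figure D2:**
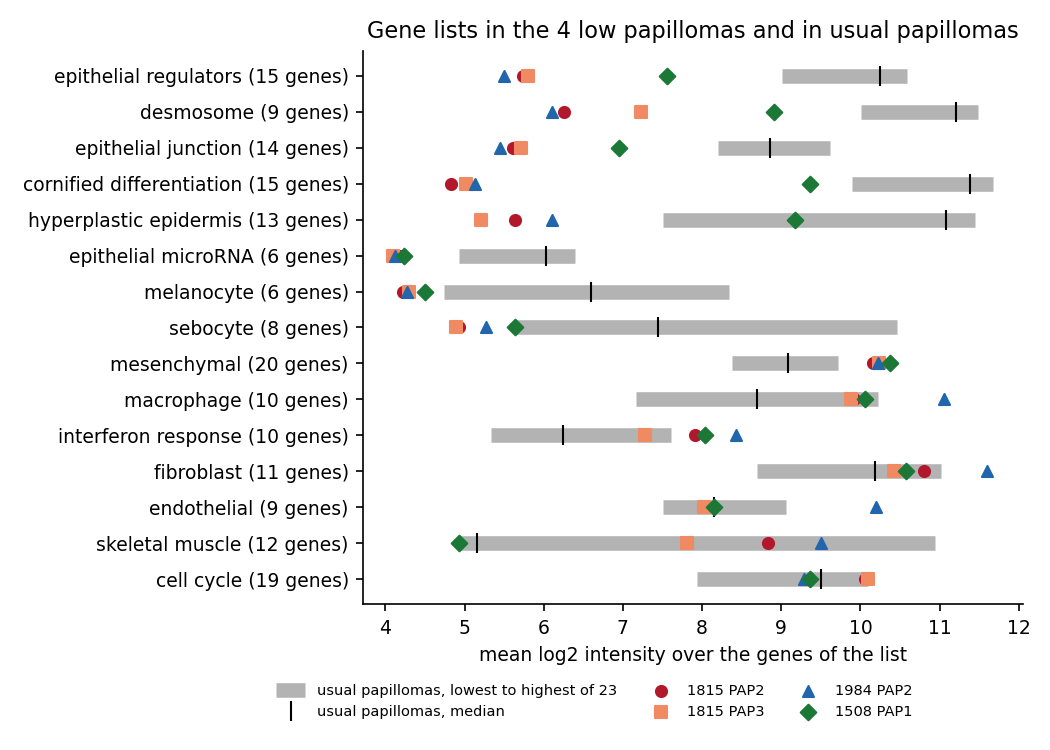
Mean log2 intensity over the measured genes of each list in the 4 low papillomas (symbols) against the lowest to highest of 23 usual papillomas (grey bars) and their median (black ticks). In 1508 PAP1 the list mean of the epithelial regulators (7.55) lies between the other low arrays and the usual papillomas. That of hyperplastic epidermis (9.18) lies inside the usual range. In all 4 low arrays the microRNA list lies at 4.10 to 4.24, which may be the floor of its probe sets. The mesenchymal list lies at 10.16 to 10.37 in these arrays.

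The microRNA genes of the epithelial state are shown by their mature sequences, because those sharing a seed share predicted targets and the miR-200 family is the known counterpart of Zeb1. The sequences are those of RefSeq on GRCm38.p6, written 5′ to 3′ with the seed, bases 2 to 8, in capitals. The first pair has the seed AAUACUG, the second pair AACACUG, and the last 2 have seeds of their own. The coordinates are those of the mature sequences on GRCm38.p6.
miR-200b-3p, chr4:156055685-156055706, minus strand: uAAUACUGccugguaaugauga
miR-200c-3p, chr6:124718324-124718346, minus strand: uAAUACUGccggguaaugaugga
miR-200a-3p, chr4:156054911-156054932, minus strand: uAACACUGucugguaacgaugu
miR-141-3p, chr6:124717917-124717938, minus strand: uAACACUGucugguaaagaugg
miR-205-5p, chr1:193507503-193507524, minus strand: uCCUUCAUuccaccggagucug
miR-203-3p, chr12:112130927-112130948, plus strand: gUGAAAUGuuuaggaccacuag

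The 6 probe sets of these microRNA genes were chosen after their values had been seen. Whether they read the hairpin, the primary transcript or the mature form was not tested. Mir205 read 3.86, 3.61, 3.96 and 4.17 in the low papillomas against 5.33 to 8.09 in usual ones, a difference of -3.28 (SD 0.23 in 4 and 0.58 in 23 arrays). Mir200b, of the AAUACUG pair, read 4.76, 4.75, 4.6 and 4.76 against 5.61 to 8.63, a difference of -2.43. Mir200c, encoded on another chromosome with the same seed, read 4.33, 4.51, 4.52 and 4.53 against 5.10 to 6.20. Of the AACACUG pair, Mir200a differed by -1.30 and Mir141 by -0.76. Neither overlapped. Mir203, a microRNA of suprabasal keratinocytes, read 3.30, 3.37, 3.22 and 3.55 against 3.48 to 6.54, so only 1508 PAP1 entered the usual range. The probe sets of Mir200b, Mir200c and Mir141 were as low in 1508 PAP1 as in the other low papillomas, as Ovol2 was among the protein-coding regulators. Spindle carcinoma medians were close to the low papilloma levels, at 4.61 for Mir200b, 4.55 for Mir200c, 4.015 for Mir141 and 4.13 for Mir205. Such levels may lie at the floor of the probe sets, where a partial level in 1508 PAP1 might not show. This was not tested. The usual range began close above, at 4.24 for Mir141 and 5.77 for Ovol2.

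Mesenchymal genes stood at a similar, higher level in all 4 low papillomas. Of 20 measured, 12 were at least 2-fold higher on average, 7 had every low array above every usual one and 1 had every low array below. Zeb1, the repressor targeted by the miR-200 family, read 10.51, 10.42, 10.07 and 10.45 against 7.45 to 9.65, a difference of 2.01 (SD 0.20 and 0.57). Snai1, a repressor of Cdh1, read 9.21, 9.49, 8.85 and 9.11 against 6.04 to 8.27. Prrx1, a homeobox factor of mesenchymal cells, read 11.79, 11.79, 11.36 and 11.48 against 8.43 to 10.80. None of these 3 genes separated 1508 PAP1 from the others. Snai2, a relative of Snai1 that basal keratinocytes also express, went the other way at 8.85, 8.68, 9.29 and 8.69 against 9.44 to 10.63. Cdh2, the N-cadherin gene, was not shared, at 5.96, 5.85, 7.71 and 9.93 against 5.46 to 7.66. Vim, the vimentin gene, read 12.72 to 12.85 against 11.44 to 12.61, close to the top of the intensity scale in every papilloma. Snai2, Cdh2 and Vim were singled out after their values had been seen.

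Promoters of epithelial genes are shown with the E-box CACCTG and its reverse complement CAGGTG, the sequence Zeb and Snai repressors are known for, since these factors and epithelial genes differed in opposite directions in the same arrays. Each run below is the 250 bases before a RefSeq start site on GRCm38.p6, 5′ to 3′ along the gene's strand, with each E-box in capitals. Krt5 was a gene of the score, and Grhl3 and Rab25 were among the regulators with the largest differences. These 3 are examples that hold the motif and were not drawn at random. Of 8 epithelial regulators with a window in the table used, 5 held an E-box (Elf3, Grhl3, Rab25, Sfn and Spint2) and 3 did not (Grhl1, Ovol2 and Spint1). Windows of the 7 other measured regulators, Ehf, Esrp2, Grhl2, Klf5, Ovol1, Prss8 and St14, and of Esrp1 and Cdh1 were not analysed here.
Krt5, chr15:101712906-101713155, minus strand: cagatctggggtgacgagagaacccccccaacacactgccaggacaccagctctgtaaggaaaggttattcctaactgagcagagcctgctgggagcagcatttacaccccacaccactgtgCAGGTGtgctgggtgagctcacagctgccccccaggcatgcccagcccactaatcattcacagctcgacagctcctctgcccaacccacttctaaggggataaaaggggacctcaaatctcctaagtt
Grhl3, chr4:135573633-135573882, minus strand: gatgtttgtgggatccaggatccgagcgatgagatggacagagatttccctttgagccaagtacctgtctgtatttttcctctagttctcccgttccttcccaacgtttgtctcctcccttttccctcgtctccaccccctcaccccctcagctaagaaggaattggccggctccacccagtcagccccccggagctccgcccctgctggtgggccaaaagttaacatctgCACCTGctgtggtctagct
Rab25, chr3:88548280-88548529, minus strand: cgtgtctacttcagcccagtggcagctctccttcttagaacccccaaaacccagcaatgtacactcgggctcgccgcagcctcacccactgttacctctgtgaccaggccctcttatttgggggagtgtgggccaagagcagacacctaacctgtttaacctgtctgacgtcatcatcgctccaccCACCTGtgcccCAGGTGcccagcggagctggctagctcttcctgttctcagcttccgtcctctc

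The Krt5 window held 1 E-box, which began 128 bases before the start site. The Grhl3 window held 1, at 19 bases, and the Rab25 window held 2, at 64 and 53 bases. An E-box was found in 17.2% of all 32851 RefSeq windows of this length. Of 14718 measured genes with a window, 19.3% held 1 or more. The share was 32% (183) of 572 genes whose low arrays all lay below the usual ones and 14.2% (95) of 669 genes whose low arrays all lay above. Mean GC content was 58.9% and 61.3% in these windows, against 56.2% over the measured genes. The genes were chosen by their values in these arrays and a letter match is no evidence of binding, so the shares are a description.

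Simple-epithelial and stromal transcripts divided the low papillomas further. Krt8, a keratin of simple epithelia also made by malignant skin tumours, read 12.53, 12.51, 6.80 and 11.05 against 6.54 to 10.61. Krt18, the partner of Krt8, read 9.08, 9.998, 5.67 and 10.20 against 4.63 to 9.85. Krt8 was above every usual papilloma in both arrays of mouse 1815 and in 1508 PAP1, and Krt18 was so in 1815 PAP3 and 1508 PAP1. In 1984 PAP2 both lay within the lower part of the usual range. Simple keratins did not rise as a list. Of 5 genes, 1 was at least 2-fold higher on average and 1 at least 2-fold lower, with a median difference of 0.03. Krt7 and Krt19 differed by -1.875 and -0.72, and both overlapped. Pdgfra, a receptor of fibroblasts, read 11.70, 11.07, 11.25 and 11.08 against 7.17 to 10.87, the fibroblast gene of 11 without overlap. Of these 11 genes, 4 were at least 2-fold higher on average. The mean level of the fibroblast list was above the usual range in 1984 PAP2 alone, at 11.60 against a usual maximum of 11.01.

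Macrophage and interferon genes were higher on average. All 10 macrophage genes were at least 2-fold higher, 1 of them without overlap. C1qa, a complement subunit made by macrophages, read 10.81, 10.78, 11.64 and 11.39 against 8.06 to 10.73. Of 10 interferon response genes, 8 were at least 2-fold higher and none separated the groups. Ifit2, an interferon-induced antiviral gene, read 7.38, 7.18, 7.87 and 8.16 against 4.56 to 7.24. No T cell, B cell, endothelial, mast cell or neutrophil list had more than 1 member at least 2-fold higher. Among these immune and stromal lists only the macrophage and fibroblast lists had a gene without overlap, 1 in each, beside 4.43% of all genes with every low array above.

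Of the skeletal muscle genes 11 of 12 were at least 2-fold higher on average but the arrays disagreed. Acta1, the muscle actin gene, read 10.95, 10.01, 11.998 and 6.46 in the low papillomas. In usual papillomas it was 11.20 to 12.52 in 3 arrays and 6.09 to 6.74 in the other 20. The mean level of the list was 8.84, 7.81, 9.50 and 4.93, against a usual range of 4.96 to 10.94. Acta1 in 1508 PAP1 was thus at the level of those 20 arrays. The part of muscle tissue in the differences was not tested. Leaving out 1508 PAP1 and the 3 muscle-rich usual papillomas gave 1679 genes with all low arrays below and 2142 with all above, against 775 and 831.

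The low papilloma of mouse 1984 held more transcripts of several other cell types than any usual papilloma. Its list means were 11.06 for macrophage genes against a usual maximum of 10.23, 10.20 for endothelial genes against a usual maximum of 9.07, 7.25 for T cell genes against 7.22, 6.58 for B and plasma cell genes against 5.74 and 9.23 for adipocyte genes against 9.01. Cidec, a lipid droplet protein of fat cells, read 10.60 there and 4.78 to 6.27 in the other low papillomas. Hmga2, a chromatin protein of mesenchymal and tumour cells named after its values had been seen, read 11.11, 10.95, 5.69 and 10.42, and its level of 5.69 in 1984 PAP2 was below every usual papilloma (7.41 to 10.23). It stood at 5.70 in the skin and at 11.10 in the spindle carcinoma of mouse 1984. The part these tissues have in the values of 1984 PAP2 was not tested.

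Signalling genes differed less than the epithelial ones. Of 18 Ras-MAPK target genes, 3 were at least 2-fold higher and 2 at least 2-fold lower, beside 7.86% and 6.74% of all genes. Spry4, a feedback inhibitor of receptor tyrosine kinase signalling, read 10.07, 8.48, 8.94 and 9.08 against 6.56 to 8.16. Hbegf, an EGF receptor ligand, read 9.56, 9.37, 7.08 and 9.81 against 7.57 to 11.27. Among 4 Ras family genes, Mras read 8.82, 9.10, 8.08 and 8.30 against 5.98 to 7.37 and Rras read 11.90, 12.27, 11.87 and 11.88 against 10.23 to 11.60. Neither overlapped, and Nras differed by 0.07.

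Of 11 TGF-beta genes, Ccn2, a matricellular target, was the 1 at least 2-fold higher, at 12.21, 12.02, 10.83 and 11.78 against 8.16 to 11.19. Bmp1, a procollagen protease, was the 1 without overlap. Over all genes 7.86% were at least 2-fold higher and 4.43% had every low array above, so such single genes do not set the list apart. Of 9 Notch pathway genes, 6 were at least 2-fold lower. Nrarp, a feedback target of Notch, read 7.17, 6.30, 8.20 and 6.73 against 8.49 to 10.18. Among 12 matrix protease genes, 4 were at least 2-fold higher and 1 lower, and Mmp3, a stromelysin, read 11.73, 9.61, 10.85 and 12.18 against 6.90 to 11.28. None of the 19 cell cycle genes was at least 2-fold different in either direction.

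The largest differences among genes without overlap were led on the high side by Cp, the copper carrier ceruloplasmin, at 10.53, 10.53, 9.98 and 11.11 against 5.15 to 9.11, a difference of 3.86 (SD 0.46 and 1.33). Osr1, a zinc finger factor of embryonic mesenchyme, followed at 11.05, 11.21, 10.80 and 10.49 against 4.99 to 9.69. Vcam1, an adhesion molecule for leukocytes, and Mgp, a matrix calcification inhibitor, differed by 3.72 and 3.54. The 6 other leading genes, Scara5, Medag, Pde1a, Scara3, Cavin2 and Tmem100, differed by 3.07 to 3.47. On the low side Fads2b led, at 3.27, 3.04, 3.46 and 7.26 against 9.08 to 11.31, a difference of -6.49 (SD 2.01 and 0.47). Abca12, the lipid transporter of the epidermal barrier, read 4.08, 4.03, 4.53 and 8.32 against 10.25 to 12.07. The 8 others were Tmem45b, the score gene Dsg3, Krtdap, Sdr9c7, Gsdmc, Dsg1b, Klk6 and Them5, with differences from -5.89 to -6.15. In each, 1508 PAP1 was the highest low array.

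Mice 1984 and 1508 also held usual papillomas, so the low papilloma was set against those of its own mouse. In mouse 1508, 1381 genes were at least 2-fold lower in 1508 PAP1 than in its PAP2 (7.36%) and 1265 higher (6.74%). In mouse 1984, 1828 genes were lower in PAP2 than in the mean of its PAP1 and PAP3 (9.74%) and 2609 higher (13.9%). Both differences were at least 2-fold lower for 917 genes (4.88%) and higher for 657 (3.5%). Of the genes at least 2-fold lower in the overall contrast, 66.2% were so in both mice, and of those higher, 38.6%. All 15 epithelial regulators were at least 2-fold lower in each mouse, with median differences of -2.64 in mouse 1508 and -5.17 in mouse 1984. Zeb1 was higher by 1.84 and by 2.21. The within-mouse values of the stromal lists were unlike each other. Endothelial genes differed by a median of -0.03 in mouse 1508 and 2.26 in mouse 1984, and skeletal muscle genes by -0.08 and 4.25. Mouse 1815 had no usual papilloma, so it allowed no such comparison.

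Pairs of usual papillomas from the same mouse gave a scale for these counts. Over 13 pairs of usual papillomas of 1 mouse, 211 to 2813 genes were at least 2-fold apart, with a median of 801. The papillomas of mouse 1815 were 484 genes apart. 1984 PAP2 was 4791 and 4233 genes from its own usual papillomas, more than any usual pair. 1508 PAP1 was 2646 genes from its usual papilloma. Of the usual pairs, that of mouse 1407 (2813) lay above this count and that of mouse 1706 (2423) next below it, and each of these pairs holds 1 of the 3 usual papillomas with high muscle transcripts. The 11 other usual pairs were 1368 genes apart or fewer.

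Compared with the mean profiles of skin, usual papillomas, SCC carcinomas and spindle carcinomas, all 4 low papillomas were closest to spindle carcinomas. Mixed carcinomas were not among these profiles. The Pearson correlation over 18772 genes with the mean spindle carcinoma was 0.985, 0.983, 0.954 and 0.976 in 1815 PAP2, 1815 PAP3, 1984 PAP2 and 1508 PAP1. With the mean usual papilloma it was 0.897, 0.899, 0.880 and 0.942. Among 23 usual papillomas the correlation with the mean spindle carcinoma was 0.897 to 0.933, and with their own mean 0.939 to 0.994. These correlations are across genes, which are not independent replicates, a usual papilloma enters the mean it is compared with, and the spindle mean holds carcinomas of the same 3 mice. 1815 PAP2 was nearest to a lymph node metastasis of its own mouse, with 375 genes at least 2-fold apart, and then to 1815 PAP3. 1815 PAP3 was nearest to 1815 PAP2, followed by the primary spindle carcinoma of the mouse (629 genes apart) and that metastasis (662). 1815 PAP2 was 960 genes from the same carcinoma. The 2 other low papillomas were nearest to tumours of other mice. 1984 PAP2 was nearest to a spindle-labelled kidney metastasis of mouse 1815 (r = 0.961), against 0.943 with its own spindle carcinoma. 1508 PAP1 was nearest to a mixed carcinoma of mouse 1949 (0.974), then to spindle carcinomas of 2 other mice (0.971 each) and an SCC of mouse 1949 (0.968). With its own spindle carcinomas r was 0.955 and 0.962. 1984 PAP2 differed by 2453 genes from its own spindle carcinoma and 1508 PAP1 by 1738 and 1464 genes from its own spindle carcinomas. The SCC of mouse 1508 was 5348 genes from 1508 PAP1.

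**Figure D3:**
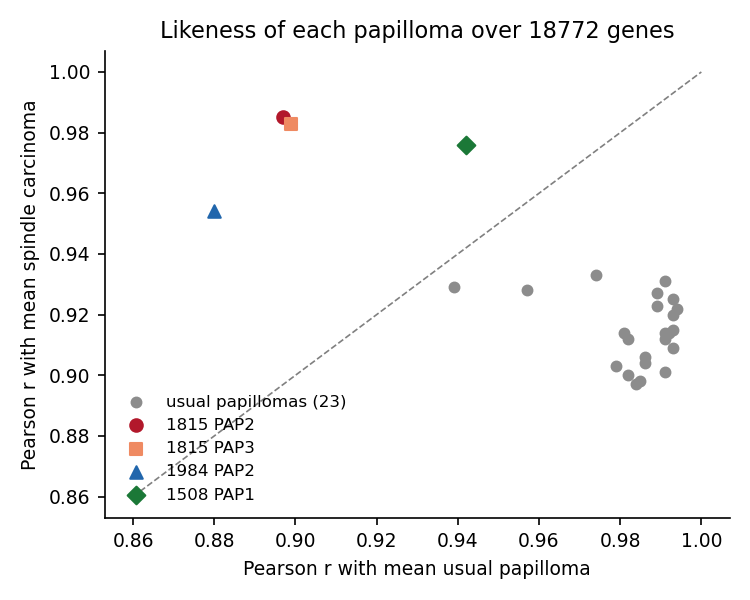
Pearson correlation over 18772 genes of each papilloma with the mean usual papilloma (horizontal axis) and the mean spindle carcinoma (vertical axis), with the dashed line marking equality. The 4 low papillomas lie above the line with spindle correlations of 0.954 to 0.985, and the 23 usual papillomas lie below it with 0.897 to 0.933.

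The direction of the papilloma differences was then compared with a contrast in other arrays. Wild-type carcinomas labelled spindle (6 mice) were tested against those labelled SCC (8 mice, 5 of them with both) with limma. The fit called 233 genes higher in spindle (1.24%) and 424 lower (2.26%) at a Benjamini-Hochberg adjusted p under 0.05. No arrays are shared with the papilloma contrast, but mice are. Across 18772 genes the log2 differences of the papilloma contrast and the carcinoma contrast had r = 0.876. With the 3 mice that hold a low papilloma left out of the carcinomas, r was 0.661. Of the 424 genes lower in spindle carcinomas, 372 (87.7%) were at least 2-fold lower in low papillomas and 1 was at least 2-fold higher, with a median difference of -3.25. Of the 233 genes higher in spindle carcinomas, 127 (54.5%) were at least 2-fold higher and 0 lower, with a median of 1.05.

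The number of carcinoma genes called depended on how mice were modelled and on single mice. With mouse as a fixed block, which rests on the 5 mice that hold both histologies, limma called 0 genes higher and 0 lower, and 1997 had an unadjusted p under 0.05. It was also 0 higher and 0 lower without the 3 mice that hold a low papilloma, and leaving out 1 mouse gave from 0 higher and 0 lower to 2139 higher and 1532 lower. The largest counts came without mouse 1949, whose spindle-labelled carcinoma had the score of 11.74. Its Zeb1 level was 8.10, below the 9.48 and 9.88 of the SCC-labelled carcinomas of the same mouse. With that array left out 1747 genes were higher and 1432 lower, of which 837 and 909 differed at least 2-fold in the same direction in low papillomas and 0 and 4 in the opposite one.

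The genes named next were those with the largest differences in the fit with mouse as a random block, and none of the 10 passed with mouse as a fixed block (limma adjusted p from 0.468 to 0.47). Of the 5 with the largest increase in spindle carcinomas, Epdr1, an ependymin-like secreted protein, was higher by 2.89 (SE 0.67, limma adjusted p = 0.0404) and read 9.30, 9.93, 8.63 and 9.29 in low papillomas against 5.01 to 8.36. Nr2f1, a nuclear receptor of neural crest and mesenchyme, was higher by 3.19 (SE 0.80, limma adjusted p = 0.0477) and read 9.09, 9.54, 5.89 and 8.62 against 4.20 to 6.78. 1984 PAP2 was thus inside the usual range for Nr2f1 and above it for Epdr1. Ntn1, Ogn and Gfra2 completed the 5, and in low papillomas their means were higher by 1.99, 2.47 and 2.65 with overlap. The largest decreases were in Defb4, Sprr2e, Dsg3, Sprr2f and Klk9. Only Dsg3 did not overlap, and it was a gene of the score that chose the low papillomas. For Sprr2e, a cornified envelope precursor, 1508 PAP1 read 11.01 within the usual range of 8.43 to 12.58, while the other low arrays read 4.23 to 5.14.

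**Figure D4:**
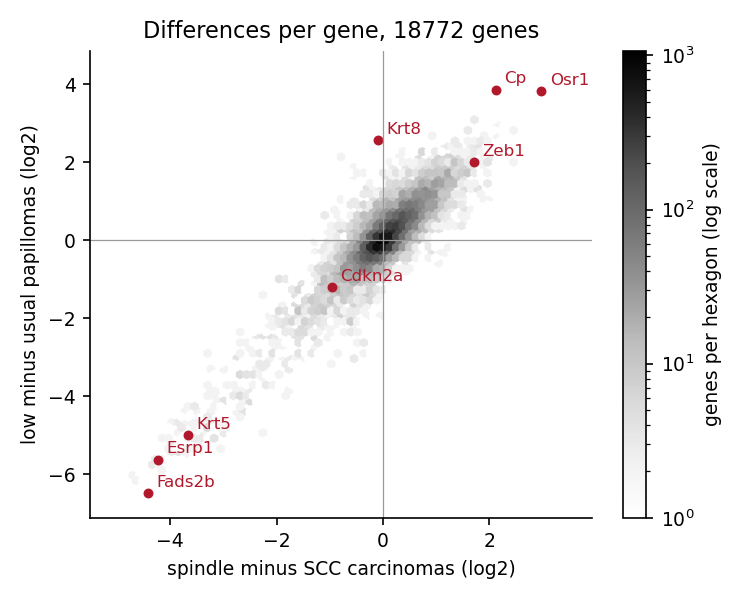
Log2 difference per gene between spindle and SCC carcinomas of wild-type mice (horizontal axis) and between low and usual papillomas (vertical axis), with the shade giving the number of genes per hexagon on a log scale. Most genes lie along a rising diagonal (r = 0.876). Fads2b and the score genes Krt5 and Esrp1 lie at its low end. Cp and Osr1 lie at its high end, and Krt8 lies off it.

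Cdkn2a, Krt8 and Xist split the low papillomas by mouse. Cdkn2a, whose products restrain the cell cycle and activate p53, read 5.02, 5.13 and 5.24 in the 3 lowest papillomas, below every usual papilloma (6.38 to 8.23). 1508 PAP1 read 9.91, above every usual papilloma. The usual papillomas of mouse 1984 read 7.34 and 7.39 and that of mouse 1508 read 7.95. Skin of the 3 mice read 5.19, 5.49 and 5.24, so the 3 lowest papillomas stood at the skin level. The spindle carcinomas of mouse 1508 read 5.05 and 5.203, unlike its low papilloma. Of 12 spindle carcinomas of the series, 10 lay below the usual papilloma range for Cdkn2a, and of 10 SCC carcinomas 2 did. Its neighbour Cdkn2b read 5.17, 5.29, 6.08 and 9.20 against 7.62 to 9.50. Mtap, a nearby gene, was not low in mouse 1815 (10.87 and 10.89 against 7.74 to 10.30). In 1984 PAP2 it read 8.47, inside the usual range but below 22 of the 23 usual papillomas, those of its own mouse (10.30 and 9.79) included. In 1508 PAP1 it read 9.77.

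Krt8 varied among the spindle tumours of these mice. In mouse 1984 it was 6.80 in the low papilloma, 6.30 in the spindle carcinoma and 5.95 in the lymph node metastasis labelled spindle. In mouse 1815 it was 12.53 and 12.51 in the papillomas, 12.40 in the spindle carcinoma and 11.29 and 11.73 in the lymph node metastases. It was 11.02 in the liver metastasis of mouse 1815 but 6.05 and 5.79 in its spleen and kidney metastases, and 12.29 in the SCC lung metastasis of mouse 1984. Of 12 spindle carcinomas in the series, 10 lay above the usual papilloma range. Xist was high in 5 of the 8 tumours of mouse 1815. It read 3.36 in the skin but 9.19 and 8.60 in the papillomas, 8.08 in the spindle carcinoma and 9.53 and 9.00 in the lymph node metastases, while the Y-linked Eif2s3y read 7.37 to 9.02 in those same tumours and 9.79 in the skin. The liver, kidney and spleen metastases of this mouse were near the skin level, at 3.67, 3.86 and 3.91. Xist beside Y-linked transcripts was not particular to mouse 1815. In HrasKO mouse 1537, which had no papilloma array, 3 of 4 arrays had Xist above 8, with Y-linked transcripts at 7.69 or more. The usual papilloma 1717 PAP1 read 7.40 for Xist and 7.83 for Eif2s3y. After the mean spindle carcinoma profile was removed, 1815 PAP2 correlated across genes with the 6 other spindle tumours of its own mouse at 0.002 to 0.651 and with 26 of other mice at -0.264 to 0.206. For 1815 PAP3 the highest values were 0.518 and 0.244. For 1984 PAP2 the highest values were 0.197 in its own mouse and 0.576 in others, and for 1508 PAP1 they were 0.011 and 0.313.

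**Figure D5:**
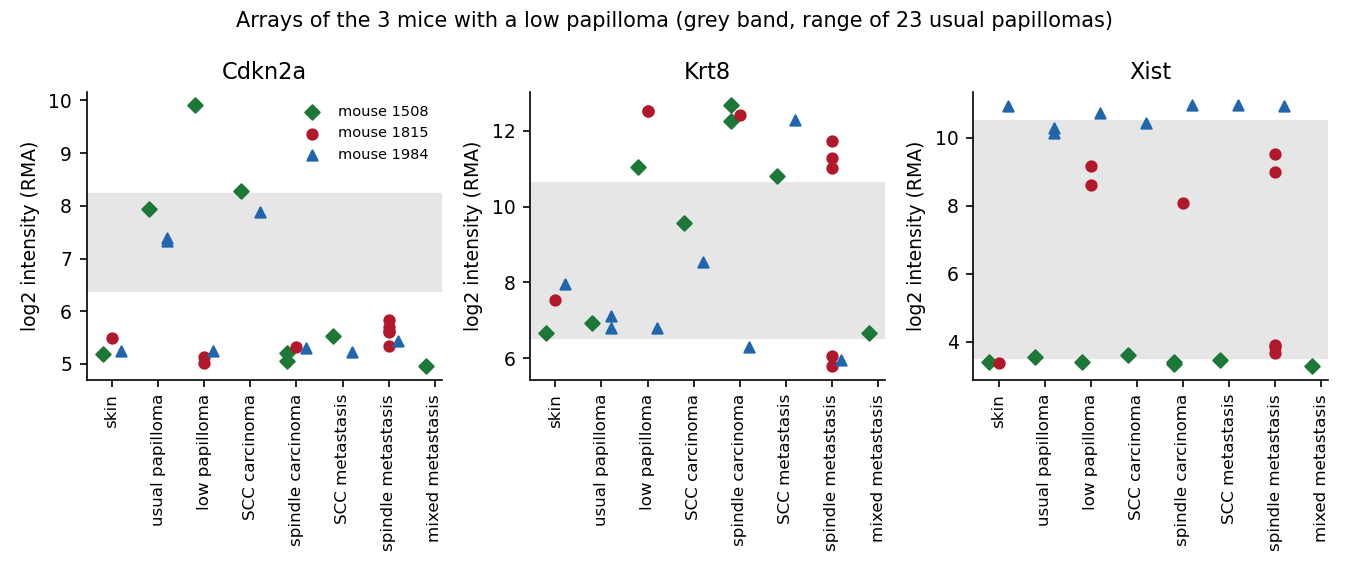
Log2 intensity of Cdkn2a, Krt8 and Xist in every array of the 3 mice with a low papilloma, by tissue and mouse, with the grey band giving the range of the 23 usual papillomas. Cdkn2a is at 5.02 to 5.24 in the low papillomas of mice 1815 and 1984 and at 9.91 in 1508 PAP1, Krt8 is low in the low papilloma of mouse 1984, and Xist is high in the papillomas of mouse 1815 but not in its skin.

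The labels of the mice, which the score did not use, were compared over mice by two-sided Fisher's exact tests, adjusted over 3 tests. All 3 mice with a low papilloma were wild type, as were 6 of the 10 other mice with a papilloma (exact p = 0.497, adjusted 0.559). All 3 had a spindle carcinoma, as did 6 of 10 others (exact p = 0.497, adjusted 0.559). A spindle metastasis was found in 2 of 3 and in 4 of 10 (exact p = 0.559, adjusted 0.559). With 3 mice in 1 group, 3 of 3 is already the most extreme split towards wild type or towards a spindle carcinoma. As its exact p was 0.497 (Fisher), the tests of genotype and spindle carcinoma could not pass in that direction. For spindle metastasis no split of these mice could give an exact p under 0.05. A p above the threshold therefore does not show that the mice are alike.

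Skin tested whether the mice differed outside the tumours. With limma on skin of the 3 mice against that of the 10 other mice with a papilloma, batch as covariate, 0 of 18772 genes passed (0% in each direction), and 586 had an unadjusted p under 0.05. That is a smaller share of the genes than the 0.05 reached on average where nothing differs. The smallest limma adjusted p was 0.998. In simulated data of this design the fit found 55% of genes changed by 1 on the log2 scale and 90% of those changed by 2. The 5 genes with the smallest p were Slc25a25, Hmox1, Itgb5, Htra1 and Nxpe4, with log2 changes from -0.60 to 1.41, all at adjusted p = 0.998 by limma. The leading gene Slc25a25, a mitochondrial carrier, was 6.91 ± 0.13 (SD, n = 3) against 5.98 ± 0.26 (SD, n = 10). Leaving out 1 of the 3 mice gave 0 calls each time. The number of genes with an unadjusted p under 0.05 (limma) was not stable. It was 2554 without mouse 1508, above a share of 0.05, and below that share at 185 without mouse 1815 and 383 without mouse 1984.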

How the data were processed

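RNA of each sample was hybridised to an Affymetrix array. The deposited log2 intensity values were made by the authors with RMA, per the submitters' processing notes, with its version and any batch correction not given in the sources used here. Probe sets with 1 gene symbol in GEO's platform annotation were kept (21141 of 28204, with 1881 of several symbols and 5182 of none). The probe set with the highest mean stood for a gene, leaving 18772 genes. Array medians lay between 5.89 and 6.36, and the number of arrays limits the precision.

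Groups came from the labels, except the low papillomas, which the score defines. That contrast has no test. Carcinoma values were averaged per mouse and histology and fitted with limma 3.58.1 in R 4.3.3, with batch as covariate and mouse as a random block. Both fits were tested on simulated data. Named genes were the 10 largest differences in each direction without overlap and with a level of at least 6, the 3 largest of each list, and for fits the 5 largest or smallest p. Members and lists were chosen with earlier results of these data known. Alternatives covered probe sets, scaling, filters, the score, the number of arrays and left-out mice. Replicates are tumours in the papilloma contrast, which has no p-value. The limma p-values rest on the spread between mice in skin, and between values averaged per mouse and histology in carcinomas. Fisher's exact tests compare counts of mice and measure no spread.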

Additional observations from a re-analysis of the deposited data

Results flagged for a closer look

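Of 124 named genes, 25 had 1 low papilloma standing apart from the other 3 (Dixon's criterion for 4 values), or 20.2%. The criterion flags about 5% of groups of independent values, but the 4 arrays were chosen by a score that was highest in 1508 PAP1. Many genes were also named for their values in these arrays, and both papillomas of mouse 1815 were among the 4. The 2 percentages therefore cannot be compared. In 19 of the 25 genes 1508 PAP1 was above the rest. These genes and the log2 intensity in 1508 PAP1 were Fads2b (7.26), Abca12 (8.32), Tmem45b (7.64), Krtdap (9.42), Sdr9c7 (8.13), Gsdmc (7.70), Dsg1b (8.17), Klk6 (10.43), Them5 (7.75), Esrp1 (8.22), Dsc3 (9.54), Gjb2 (10.38), Grhl3 (8.18), Tgm3 (9.45), Krt1 (11.67), Defb4 (7.03), Dct (4.50), Krt79 (7.57) and Cdkn2a (9.91). For Cdkn2a it was also above every usual papilloma, whose maximum was 8.23. In 1984 PAP2, Tek (9.73) was above the other low papillomas, and Hbegf (7.08), P4ha1 (9.99) and Mir200b (4.6) were below them. Rras (12.27) was high in 1815 PAP3 and Mir200c (4.33) low in 1815 PAP2.

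In 25 groups of mice behind the genes named from the carcinoma and skin fits, 7 had a mouse standing apart, and all 7 were mouse 1949. Its spindle carcinoma was low for Ntn1 (6.01), Nr2f1 (4.39) and Epdr1 (5.95) and high for Defb4 (6.66) and Sprr2f (10.46). Its SCC carcinomas were high for Ntn1 (9.04) and Nr2f1 (7.67).

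For 6 named genes the low papilloma lay at least 2-fold above the usual papillomas of its own mouse in one mouse and at least 2-fold below in the other, and this difference between mice was not tested. Dpt, a dermal matrix protein, differed by -1.11 in mouse 1508 and 3.05 in mouse 1984. Cxcr2 and Trem1, both of neutrophils, differed by -1.51 and -1.56 in mouse 1508 and by 1.28 and 2.92 in mouse 1984. Cd209a, of dendritic cells, differed by -1.28 and 5.32. Mmp10, a stromelysin, differed by 2.51 and -2.27, and Cdkn2a by 1.96 and -2.13.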

How the results depend on the processing

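The 4 low papillomas were the same 4 arrays when scored by Krt14, Cdh1 and Epcam. Of 124 named genes, none whose groups did not overlap changed sign in any of 17 settings. Settings that only left out or averaged arrays, or kept the same arrays and values, could not change the sign of such genes. Their low arrays all lay on 1 side of the usual ones, so the unchanged signs are little evidence of stability. Of 2095 gene and setting pairs 132 moved by more than the spread between arrays. Most of these came with mouse as a block (45), without 1508 PAP1 (23) or without it and the muscle-rich papillomas (27). With mouse as a block, 1304 genes were at least 2-fold lower and 1825 higher, against 1266 and 1476, so this pairing moved neither count by over 1.5 times.

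Counts of genes without overlap depended more on which arrays were included. Usual papillomas averaged per mouse gave 1583 below and 1858 above, from fewer values to pass. Leaving out 1 low array gave 841 to 1082 below and 902 to 1522 above. Settings chosen after seeing the data gave 1659 above without mice 1984 and 2104, 1363 below and 1584 above without 3 muscle-rich usual papillomas, and 1679 and 2142 also without 1508 PAP1. The low papilloma of mouse 1984 correlated with spindle carcinomas at 0.969 without genes that differ between skin and papillomas.

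The carcinoma counts were the least stable. They were 0 higher and 0 lower with mouse as a fixed block, and the same without the mice that hold a low papilloma. Unadjusted p under 0.05 was then reached by 1997 and 1275 genes (limma). Both genotypes gave 869 and 894, and a filter on low values gave 438 higher. Leaving out 1 mouse gave 0 to 2139 higher and 0 to 1532 lower. Without the spindle-labelled array of mouse 1949 they were 1747 and 1432, and of these 837 and 909 were at least 2-fold different in the same direction in low papillomas and 0 and 4 in the opposite one, with median differences of 0.96 and -1.49 over all of them. The correlation of differences was 0.661 without the low-papilloma mice. The cause was not tested.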

Other observations

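A few further genes, chosen after their values were seen, differed in part between low and usual papillomas or among the low ones. Mir31, a microRNA gene of proliferating keratinocytes, read 6.49, 6.44, 3.88 and 5.84 in 1815 PAP2, 1815 PAP3, 1984 PAP2 and 1508 PAP1, against 4.94 to 9.26 with a median of 8.18 in usual papillomas. Mir675, encoded in the imprinted H19 transcript, read 8.35, 9.83, 9.02 and 4.89, against 4.59 to 10.52 with a median of 5.51. All 4 values of Mir675 lay inside the usual range, above its median in the 3 lowest papillomas and below it in 1508 PAP1. In mouse 1815 Mir675 also read 8.36 in the spindle carcinoma and 5.30 in the skin. Igf2, the growth factor next to H19, read 7.66, 8.63, 7.55 and 11.25, against 5.39 to 10.34, and was highest in 1508 PAP1. Cxcl12, a chemokine of stromal cells, read 10.71, 9.36, 10.66 and 9.60, against 5.59 to 9.64. Myc, a growth-promoting factor, read 9.30, 9.31, 9.33 and 11.21, against 9.75 to 10.40, so that the 3 lowest papillomas lay below every usual papilloma and 1508 PAP1 above.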
